A study of Brassica napus with 16 samples.

Results

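Gene expression in flower buds of 2 cultivars of Brassica napus (oilseed rape), 2063A and B409, was compared. The comparison holds the 2 flower bud libraries of 2063A and the 2 of B409, chosen by their sample labels, out of 16 RNA-seq libraries in the series. The other 12 libraries come from young leaf, silique and root of the same cultivars, again with 2 replicates each. Roots were taken 7 days after planting on moist paper, young leaves from hydroponic plants 2 weeks old, and siliques of 3 to 5 cm from the field, so tissue goes with age and growing place. Buds were no longer than 2 mm and came from field-grown plants, and no treatment, transgene or mutation is named for either cultivar. The labels give neither the stage of the buds nor how many were pooled, and a whole bud mixes all floral organs. Nor do they state whether the 2 replicates of a cultivar were different plants, and the p-values below therefore describe sample-to-sample spread that could be technical.

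Brassica napus is an allotetraploid: its A chromosomes derive from Brassica rapa and its C chromosomes from Brassica oleracea, so many genes exist as an A and a C copy, called homeologs. A young flower bud encloses sepals, petals, stamens and pistil while they form. In flowering plants the anthers of young buds, with their tapetum and developing pollen cells, are known for genes that are active in no other organ. A gene found in bud alone is therefore informative about the flower, although its level in a whole bud cannot tell fewer cells of a type apart from less RNA per cell.

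Expression is given in FPKM, the number of fragments per kilobase of a transcript relative to all mapped fragments of a library. An FPKM of at least 1 was reached by 41210 and 41456 genes in the bud libraries of 2063A and by 39979 and 38691 in those of B409. Relative depth, read from the smallest steps between low values, was 1 and 1.25 in 2063A and 0.687 and 0.456 in B409, taking the first library of 2063A as the unit. Genes listed at 0 numbered 45119 and 43727 in 2063A and 48149 and 51029 in B409, and how much of this comes with depth was not tested. Log2 values of replicates correlated across genes at r = 0.987 in 2063A and 0.986 in B409, and libraries of different cultivars at 0.895 to 0.899. These correlations run over genes, which are not independent replicates, and only describe likeness. Gene identifiers give the chromosome but, with 2 exceptions among 101040, no gene name was matched, so floral marker genes were not examined and the tissue label was not checked against them.

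Of 54206 genes tested, 3673 (6.78%) were higher in 2063A and 2991 (5.52%) were higher in B409. This excess towards 2063A turned after quantile normalization, a scaling that gives every library the same distribution of values, with 2875 genes towards 2063A and 3463 towards B409. A call required an adjusted p (Benjamini-Hochberg, limma on log2(FPKM + 1)) below 0.05 together with a change of at least 2-fold. The size of a called difference was similar in both directions, and the median absolute log2 change was 1.40 towards 2063A and 1.47 towards B409. At least 8-fold differences were found in 248 genes towards 2063A and 156 towards B409. The same direction was called in no other tissue for 1531 of the genes higher in 2063A and for 1285 of those higher in B409, and without the bud-alone genes described below, which are near 0 elsewhere, for 1355 and 673. At the other end, 849 and 733 of these genes were called in the same direction in young leaf, silique and root as well. Opposite calls in another tissue were found for 83 genes higher in bud of 2063A and for 21 higher in bud of B409.

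The pair of genes with the largest change in each direction was also expressed outside the bud. BnaA09g54870D, on chromosome A09, had 238 and 273 FPKM in buds of 2063A and was listed at 0 in both bud libraries of B409 (adjusted p = 7.03e-10, limma). Its levels in 2063A were 2696 and 1644 FPKM in young leaf and 383 and 367 FPKM in silique, and it did not exceed 0.268 in root. In B409 it did not exceed 0.131 FPKM in any tissue. BnaA10g21870D had 133 and 115 FPKM in buds of 2063A, was listed at 0 in both bud libraries of B409, and lay between 29.6 and 87.2 FPKM in the other libraries of 2063A (adjusted p = 1.63e-10, limma). Both genes thus separated the cultivars completely in bud.

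In the other direction, BnaC03g23520D had 0.285 and 0.271 FPKM in buds of 2063A, against 110.0 and 99.8 FPKM in buds of B409 (log2 change -6.37, SE 0.29, limma adjusted p = 2.82e-08). In silique the same gene had 25.6 and 27.3 FPKM in 2063A and 71.8 and 70.2 FPKM in B409, so 2063A expressed it there and hardly at all in bud. BnaA06g28610D had 0.939 and 1.87 FPKM in buds of 2063A, against 117 and 138 FPKM in buds of B409 (log2 change -5.76, SE 0.23, limma adjusted p = 1.09e-08). Its levels outside the bud did not exceed 0.618 FPKM in 2063A and did not fall below 29.1 FPKM in B409. For this gene the groups were apart in every tissue.

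Genes expressed in bud alone showed another picture. They were taken as the genes with a mean of at least 1 FPKM over the 4 bud libraries and under 1 FPKM in each of the 12 others, a rule that treats the cultivars alike. It gave 1918 genes, of which 1896 were tested. Among these, 176 (9.28%) were higher in 2063A and 612 (32.3%) were higher in B409. The libraries of the cultivars did not overlap for 522 members towards 2063A (27.5%, against 39.9% of all tested genes) and for 996 towards B409 (52.5%, against 23.4%). Among the 52310 other tested genes the shares were 6.69% and 4.55%. Genes of the bud alone made up 3.498% of the genes tested, 4.79% of those called higher in 2063A and 20.5% of those called higher in B409. Their median log2 change was -0.30, with quartiles at -1.23 and 0.32, whereas the median of all tested genes was 0.08, with quartiles at -0.15 and 0.41.

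The same genes also held a smaller part of the RNA in 2063A. They supplied 4.02% and 4.31% of summed FPKM in the bud libraries of 2063A, against 8.07% and 8.14% in those of B409. The means were 4.17% ± 0.21 in 2063A and 8.105% ± 0.0425 in B409 (SD, n = 2 each), a difference of -3.94 percentage points that exceeds the spread between replicates. An exact two-sided permutation test of 2 against 2 libraries gave p = 0.33, the smallest value this design allows. The share was not carried by a few abundant genes alone: without the 10 members of highest mean it was 3.12% and 3.31% in 2063A, against 5.83% and 5.85% in B409. The number of members at 1 FPKM or more differed less, at 1506 and 1539 in 2063A and 1646 and 1548 in B409.

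**Figure D1:**
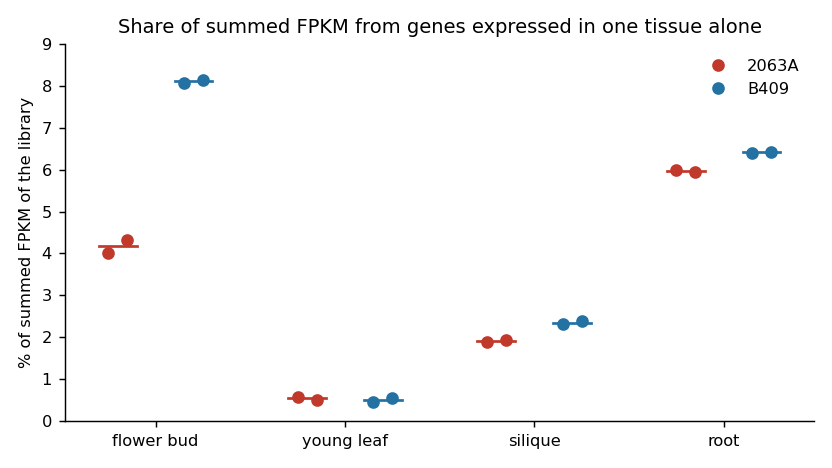
Share of summed FPKM (%, y axis) from genes expressed in one tissue alone, for flower bud, young leaf, silique and root (x axis). Each point is a library, 2063A left of B409 in each tissue, and lines are means of 2 libraries. In flower bud the points of 2063A lie at 4.02% and 4.31% and those of B409 at 8.07% and 8.14%, while the cultivars lie closer together in the other tissues.

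Estimating the spread from all 16 libraries matters for such genes, since they are near 0 in 12 of them. The median residual SD of members was 0.139 on the log2 scale over all libraries and 0.171 within bud, whereas for the other tested genes it was 0.204 and 0.130. With limma fitted on the 4 bud libraries alone, 125 members (6.59%) passed as higher in 2063A and 509 (26.8%) as higher in B409. The shares of all tested genes in that fit were 5.68% and 4.87%. All of these 125 and 509 genes were also among the calls made with 16 libraries. After quantile normalization, 136 members were higher in 2063A and 667 higher in B409.

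The most abundant bud genes illustrate the lean towards B409. BnaA03g12750D, on chromosome A03, had 602 and 558 FPKM in buds of 2063A, against 2366 and 2644 FPKM in buds of B409, and 0 FPKM in young leaf, silique and root. Its log2 change was -2.11 (SE 0.11, limma adjusted p = 8.17e-08), but with the bud libraries alone the adjusted p was 0.156. BnaC03g15620D, on chromosome C03, had 397 and 450 FPKM in buds of 2063A, against 1815 and 1853 FPKM in buds of B409 (log2 change -2.11, SE 0.11, limma adjusted p = 1.06e-07; 0.0793 with the bud libraries alone). The libraries of the cultivars did not overlap for either gene. BnaA10g23670D differed from them: it had 1406 and 1612 FPKM in buds of 2063A and 1327 and 1280 FPKM in buds of B409, a log2 change of 0.21 that missed the threshold (SE 0.11, limma adjusted p = 0.212). Of the 10 members of highest mean, 7 were called higher in B409, with absolute log2 changes of 1.40 to 2.43, 0 were called higher in 2063A and 3 were not called.

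The shift was not uniform over these genes. A log2 change within 0.5 of 0 was measured for 35.4% of members, compared with 68.6% of the other tested genes. At least 2-fold differences were measured in 9.28% of members towards 2063A and 32.3% towards B409, compared with 6.91% and 4.66% of the other genes. For members these equal the shares called with 16 libraries, so the adjusted p removed no member that met the 2-fold limit. The distribution of members has a shoulder between -2 and -1 beside a peak near 0. On the log2(FPKM + 1) scale, a part of the bud genes thus lay near 0, another part was lower in 2063A and a smaller part higher. The median log2 change was 0.04 in the 867 members with a mean of 1 to 2 FPKM and -1.26 in the 211 with 5 to 10 FPKM. This scale understates changes near 1 FPKM, so a value near 0 does not show similar levels for the lowest members.

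**Figure D2:**
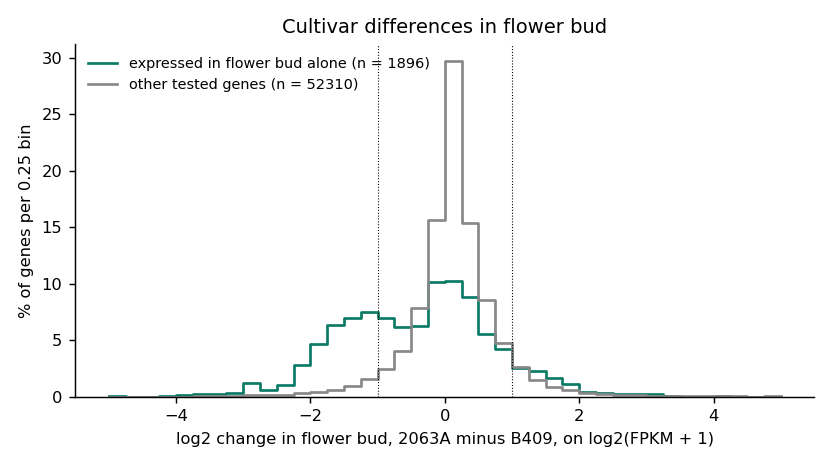
Distribution of the log2 change in flower bud, 2063A minus B409, on log2(FPKM + 1) (x axis) as % of genes per bin (y axis). The green line is the 1896 tested genes expressed in flower bud alone, the grey line the 52310 other tested genes, and dotted lines mark 2-fold. Changes beyond 5 in either direction are drawn at the ends. The grey line is narrow around 0, and the green line holds 32.3% of its genes at or below -1.

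The share of members higher in B409 depended on how strongly they were expressed. It was 14.99% of 867 members with a mean of 1 to 2 FPKM, 38.3% of 554 with 2 to 5 FPKM and 61.1% of 211 with 5 to 10 FPKM. Above that it was 57.8% of 102 members with 10 to 20 FPKM, 50% of 54 with 20 to 50 FPKM, 57.1% of 35 with 50 to 100 FPKM and 47.9% of 73 at 100 FPKM or more. The share higher in 2063A lay between 2.74% and 11.1% in these bins. For the other tested genes over the same levels, 5.52% to 10.5% were higher in 2063A and 4.26% to 6.25% were higher in B409. The log2(FPKM + 1) scale understates changes of genes near 1 FPKM, which bears on the lowest bin.

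**Figure D3:**
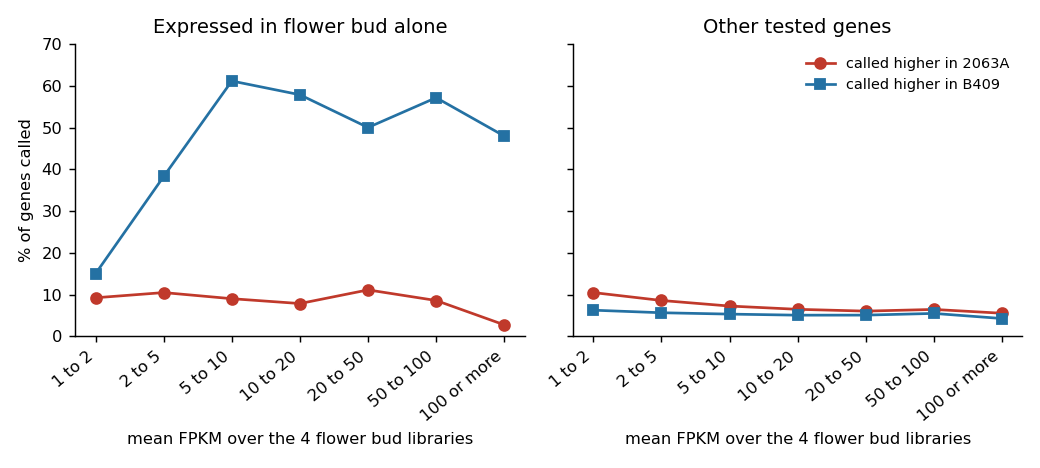
Share of genes called between the cultivars (%, y axis) by mean FPKM over the 4 flower bud libraries (x axis, in classes), for genes expressed in flower bud alone (left) and other tested genes with a mean of at least 1 FPKM (right). Red circles are genes higher in 2063A and blue squares genes higher in B409. The blue line on the left climbs from 14.99% to 61.1% over the first 3 classes and then stays between 47.9% and 57.8%.

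Most members were expressed in both cultivars. The 1039 members with at least 1 FPKM in all 4 bud libraries had a median level of 2.71 and 2.91 FPKM in the libraries of 2063A, against 5.20 and 4.76 FPKM in those of B409. Of these, 51 (4.91%) passed as higher in 2063A and 348 (33.5%) as higher in B409, and their median log2 change was -0.42. With the bud libraries alone these counts were 38 and 295. A further 186 members reached 1 FPKM in both libraries of 2063A and in neither of B409, and 270 did so in B409 and not in 2063A. The direction of these 2 classes is set by how they were chosen, and 99 and 205 of them passed the test. The remaining 423 members, of which 401 were tested, held 26 calls higher in 2063A and 59 higher in B409.

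A few bud genes were detected in 1 cultivar only. At least 1 FPKM in both libraries of one cultivar and a listing at 0 in both of the other was found for 20 members expressed in 2063A and 30 expressed in B409. Among all genes this pattern was found for 516 in 2063A and 222 in B409, with median levels of 2.67 and 2.52 FPKM, the B409 libraries being the shallower ones. BnaCnng39540D, a C gene not placed on a named chromosome, had 14.2 and 19.5 FPKM in buds of 2063A and was listed at 0 in both bud libraries of B409 (adjusted p = 1.36e-09, limma). BnaC04g32470D, on C04, had 9.17 and 11.1 FPKM in buds of 2063A with a listing of 0 everywhere else (adjusted p = 7.3e-10, limma). These are the 2 bud genes with the largest log2 changes towards 2063A, and the next, BnaA03g41380D (log2 change 3.38), lies on A03.

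Towards B409 the 2 largest changes were in genes of the C chromosomes too, and the next was in BnaA09g35360D on A09 (log2 change -3.79). BnaC03g36310D was listed at 0 in both bud libraries of 2063A, against 27.0 and 25.5 FPKM in buds of B409, and was at 0 in every other library (adjusted p = 8.49e-11, limma). BnaC04g33500D had 0.252 and 0 FPKM in buds of 2063A, against 18.2 and 22.4 FPKM in buds of B409 (log2 change -4.24, SE 0.12, limma adjusted p = 1.01e-09). It was also listed at 0 outside the bud. The assignment of reads shared by A and C homeologs is not stated in any source used here, so values of near-identical copies are uncertain, also where a gene is at 0.

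The same rule applied to the other tissues gave less one-sided counts. Of 1040 tested genes expressed in silique alone, 9.81% were higher in 2063A and 16.0% higher in B409 within silique, against 4.32% and 4.72% of all tested genes there. In young leaf the shares were 10.1% and 14.2% of 656 genes, against 4.33% and 5% of all. In root they were 9.82% and 11.6% of 3738 genes, against 5.36% and 5.43% of all. In bud the shares were 9.28% and 32.3% of members, against 6.78% and 5.52% of all. Tissue-alone genes thus exceeded the share of all tested genes in both directions in every tissue. All tested genes, though, include genes with a mean under 1 FPKM in the tissue, which the rule leaves out. Over the same levels in bud, 2.74% to 11.1% of members and 5.52% to 10.5% of other genes were higher in 2063A. An excess of members towards 2063A at equal level is therefore not shown. In bud, 99 of the 176 calls towards 2063A and 205 of the 612 towards B409 were in members that reached 1 FPKM in one cultivar only. Members with at least 1 FPKM in all 4 bud libraries were higher in 2063A in 4.91% and in B409 in 33.5%. The 6.78% and 5.52% of all tested genes include genes under 1 FPKM in a cultivar, which this class leaves out. The split of members by cultivar was not made in the other tissues, and the difference between tissues was not tested. Silique-alone genes supplied 1.89% and 1.93% of summed FPKM in silique of 2063A and 2.30% and 2.40% in silique of B409, which did not overlap. Root-alone genes supplied 5.99% and 5.95% in root of 2063A and 6.41% and 6.42% in root of B409, also without overlap. Young-leaf-alone genes supplied 0.582% and 0.491% in young leaf of 2063A and 0.450% and 0.550% in young leaf of B409, which overlapped.

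The lean extended to some genes outside the rule, those far higher in bud than in any other tissue. On the log2 scale, genes whose bud mean lay at least 2 units above their highest other tissue numbered 775, of which 64 were higher in 2063A and 363 higher in B409. Of these, 220 did not meet the rule for bud alone, and 25 (11.4%) of them were higher in 2063A and 58 (26.4%) higher in B409. Genes with a bud mean 1 to 2 units above the highest other tissue were higher in 2063A in 7.61% and in B409 in 16.4% of 2246 cases. Bud-alone members were not taken out of these 2246, so the shares do not show a lean beyond the members. Where another tissue exceeded the bud by more than 4 units, 5.51% of 1288 genes were higher in 2063A and 1.01% higher in B409. The lean did weaken with a looser rule. With up to 2 FPKM allowed in the other libraries, 16.85% of members were higher in B409 and the median log2 change was -0.0051. This wider set of 4638 genes held 351 calls towards 2063A and 778 towards B409. Of these, 176 and 612 were in the 1918 bud-alone genes. The genes added by the looser rule thus held calls in similar numbers in both directions. With up to 0.5 FPKM the median was -0.85. At the edge of the rule, the mean level was 1.0008 FPKM in BnaA04g11410D, just inside it, and 0.99979 FPKM in BnaC01g15150D, just outside.

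Genes expressed in bud alone came from both subgenomes in nearly equal numbers, 995 from the A and 917 from the C chromosomes. Of 985 tested A members, 101 (10.3%) were higher in 2063A and 304 (30.9%) higher in B409. Of 906 tested C members, 75 (8.28%) were higher in 2063A and 304 (33.6%) higher in B409. A genes supplied 56.7% and 56.1% of the bud-alone FPKM in 2063A, against 53.5% and 54.5% in B409 (exact two-sided permutation p = 0.33, the smallest possible). Of the FPKM of all genes, A genes supplied 50.4% and 50.6% in buds of 2063A, against 49.5% and 49.6% in buds of B409. The libraries did not overlap in either share, and the gap between cultivar means was 2.42 percentage points for bud-alone genes and 0.975 for all genes.

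Over all tested genes, 8.08% of 26678 A genes were higher in 2063A and 5.78% higher in B409. For 27387 C genes the shares were 5.51% and 5.24%. The lean towards 2063A depended on the scaling: after quantile normalization the shares were 6.34% and 6.74% for A genes and 4.30% and 6.03% for C genes.

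The lean of bud-alone genes towards B409 recurred on every named chromosome. On each of the 19 named chromosomes more members were called higher in B409 than in 2063A, and this count of 19 was the same with equal library totals, after quantile normalization and with the bud libraries alone. The share higher in B409 ran from 18.1% of members on A01 to 43.4% on C02, and the share higher in 2063A from 4.82% on A05 to 17.9% on A02. The median log2 change of members was negative on all 19, from -0.71 on A04 to -0.11 on C06. Among the other tested genes, B409 had more calls than 2063A on 4 of 19 chromosomes as deposited and on 9 after quantile normalization. Of these other genes, 15.4% were higher in 2063A on A10, where 2.47% were higher in B409, and 5.67% were higher in 2063A on C02, where 15.9% were higher in B409.

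**Figure D4:**
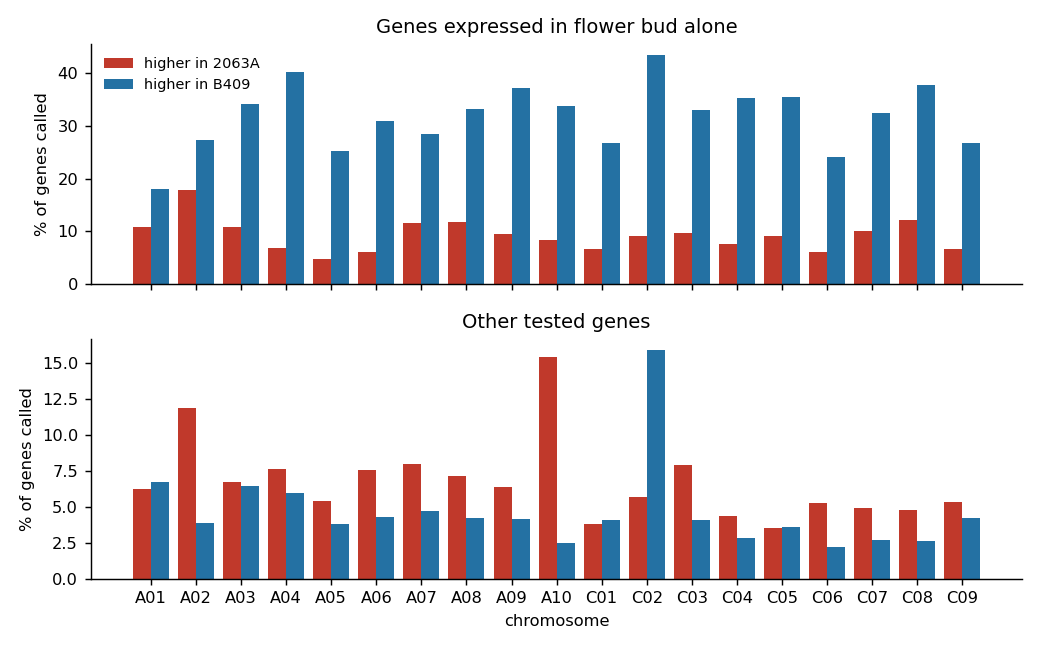
Share of tested genes called (%, y axis, with different ranges in the 2 panels) on the 19 named chromosomes (x axis), for genes expressed in flower bud alone (top) and other tested genes (bottom). Red bars are genes higher in 2063A and blue bars genes higher in B409. In the top panel every blue bar exceeds its red neighbour, while in the bottom panel A10 stands out in red at 15.4% and C02 in blue at 15.9%.

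Part of the differences in bud lay in blocks of neighbouring genes. Tested genes were ordered by identifier number along each chromosome and divided into 960 windows of 50, with fewer genes in the last window where fewer remained. The median window held 2 genes called towards 2063A and 2 towards B409. At least 15 genes higher in 2063A were found in 18 windows, of which 6 were on A10, 4 on A02, 4 on C03, 2 on C09 and 1 each on A06 and C06. At least 15 genes higher in B409 were found in 16 windows, of which 8 were on C02, 2 each on A01 and A03, and 1 each on A09, C01, C05 and C09. The densest window was the first of C09, BnaC09g00010D to BnaC09g00680D, in which 40 genes were higher in 2063A and 0 in B409, with a median log2 change of 2.70. Towards B409 it was a C02 window, BnaC02g38610D to BnaC02g39620D, in which 1 gene was higher in 2063A and 36 in B409, with a median of -1.54.

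**Figure D5:**
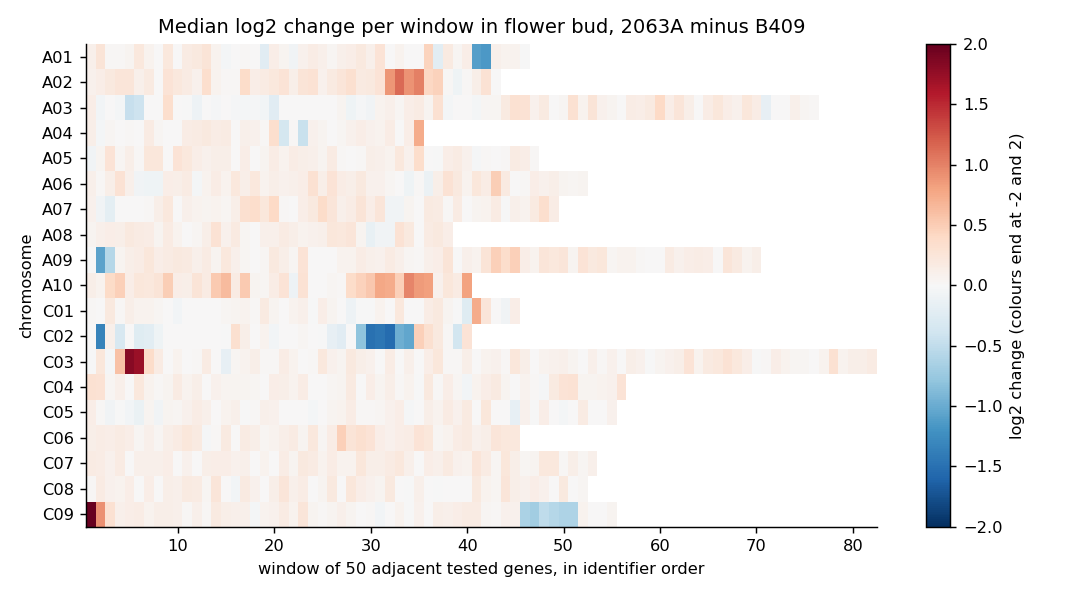
Median log2 change in flower bud, 2063A minus B409 (colour, on log2(FPKM + 1)), for windows of 50 adjacent tested genes in identifier order (x axis) on the 19 named chromosomes (y axis). The last window of a chromosome can hold fewer genes. Red is higher in 2063A and blue higher in B409. Solid blocks stand out at the start of C09 and near that of C03 (red), on A02 and A10 (red) and on C02, A01 and A09 (blue), while most windows are pale.

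The 18 windows dense in genes higher in 2063A held 403 such genes, 11.0% of all calls in that direction. Of these, 9 (2.23%) were expressed in bud alone, and 81.9% of the 403 were called the same way in at least 1 other tissue. The 16 windows dense in genes higher in B409 held 390 such genes, 13.0% of all calls in that direction. Of these, 17 (4.36%) were expressed in bud alone, and 89.5% of the 390 were called the same way elsewhere. Bud-alone genes made up 3.498% of all tested genes, 4.79% of all calls higher in 2063A and 20.5% of all calls higher in B409. The share of bud-alone genes among calls in a window depends on how many lie there. The first window of C09 held 1, which was not called, and the densest C02 window held 4, all called. Outside the dense windows of each direction, and leaving out bud-alone genes, the share called the same way in at least 1 other tissue was 58.4% for genes higher in 2063A. For genes higher in B409 it was 67.6%. The first window of C09 had median log2 changes of 1.92 in young leaf, 2.63 in silique and 2.06 in root, against 2.70 in bud. All had the same direction, and only silique was close to bud. The C02 window had medians of -1.44, -1.22 and -0.90 in those tissues.

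Uninterrupted runs of adjacent tested genes called in one direction held a minority of the calls. Runs of 3 or more numbered 112 for genes higher in 2063A, with 465 genes, and 103 for genes higher in B409, with 431 genes. The longest in the first direction was 16 genes, BnaC03g03550D to BnaC03g03730D, whose summed level was 246 and 239 FPKM in buds of 2063A, against 11.8 and 10.3 FPKM in buds of B409. In the second it was 15 genes, BnaC02g38620D to BnaC02g38950D, with 28.5 and 27.7 FPKM in buds of 2063A, against 252.5 and 277 FPKM in buds of B409. When only genes with at least 1 FPKM in 2 bud libraries were counted as neighbours, the longest run was 31 genes in each direction, and without any filter on low values it was 9 in each. Bud-alone calls lay in runs of 3 or more in 10.1% of cases higher in 2063A and 11.6% higher in B409, and other calls in 14.5% and 17.3%.

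Whether the cultivar difference in bud departed from that in the other tissues was tested directly, as the difference in bud minus the mean of the differences in young leaf, silique and root. It leaned more to 2063A in bud for 1981 genes (3.65%) and more to B409 for 1359 genes (2.51%), and after quantile normalization for 1457 and 1585. Of the genes called in bud, 1052 higher in 2063A and 1087 higher in B409 also passed this test in the same direction. Members of the bud-alone set were 165 of the 1052 and 592 of the 1087. For these, being near 0 in the other tissues makes this test nearly the same as that in bud.

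Among genes also expressed elsewhere, BnaC03g40460D had 24.0 and 29.4 FPKM in buds of 2063A, against 1.94 and 0.891 FPKM in buds of B409. In root the order was the opposite, with 2.38 and 2.35 FPKM in 2063A and 6.62 and 7.36 FPKM in B409. The difference of differences was 4.12 (SE 0.51, limma adjusted p = 0.000225). BnaA05g00480D had 19.0 and 22.2 FPKM in buds of 2063A, against 1.76 and 1.34 FPKM in buds of B409, and in root 3.36 and 3.62 FPKM in 2063A, against 27.3 and 22.2 FPKM in B409. Its difference of differences was 4.04 (SE 0.34, limma adjusted p = 1.18e-05). The libraries of the cultivars were apart in both tissues for both genes, in opposite directions.

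Towards B409, BnaC06g34730D had 4.36 and 7.51 FPKM in buds of 2063A, against 103 and 88.1 FPKM in buds of B409. In silique it had 3.33 and 4.52 FPKM in 2063A and 2.86 and 3.12 FPKM in B409, and it was listed at 0 in young leaf and root. Its difference of differences was -3.93 (SE 0.23, limma adjusted p = 7.37e-07). BnaC08g46530D had 2.05 and 2.49 FPKM in buds of 2063A, against 47.2 and 55.9 FPKM in buds of B409, and in root 69.2 and 65.1 FPKM in 2063A, against 127 and 129 FPKM in B409. Its difference of differences was -3.58 (SE 0.38, limma adjusted p = 7.19e-05). For both genes the levels in silique of the 2 cultivars lay close together, at 12.2 and 13.4 FPKM in 2063A and 10.4 and 11.3 FPKM in B409 for BnaC08g46530D. Within 2063A, BnaC08g46530D was lower in bud than in silique and root. The bud and silique libraries of 2063A overlapped for BnaC06g34730D, which was high in buds of B409 only.

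The 2 identifiers that the RefSeq gene table of assembly Da-Ae pairs with another name were both expressed in bud. BnaA02g32290D, named KCP1, had 20.2 and 18.9 FPKM in buds of 2063A, against 8.09 and 7.603 FPKM in buds of B409, without overlap (log2 change 1.22, limma adjusted p = 0.000522). BnaCnng15100D, named TR1, had 8.52 and 11.0 FPKM in buds of 2063A and 9.54 and 7.71 FPKM in buds of B409, which overlapped (log2 change 0.16, limma adjusted p = 0.58).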

How the data were processed

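The authors deposited 1 FPKM value per gene and library, per the file headers. Per the submitters' processing notes Trimmomatic, TopHat2 and Cufflinks 2.1.1 were used, without roles or settings. The build and gene models are not given in the sources consulted. Read counts are not known, so no count model or counting interval was used. An exact 0 can be a failed estimate, so genes are described as listed at 0.

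Genes with at least 1 FPKM in at least 2 of 16 libraries were tested on log2(FPKM + 1) with limma 3.58.1 in R 4.3.3, with 1 mean per cultivar and tissue, a shared spread and a mean-variance trend. Calls needed a Benjamini-Hochberg adjusted p below 0.05 over all tested genes and at least a 2-fold change (1 on the log2 scale), two-sided. The script was tested on simulated data. Other pseudocounts, filters, scalings, sets of libraries and limits of the bud-alone rule were tried.

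The bud-alone rule, gene lists and tests were chosen with earlier results of these data known. Named genes had the largest changes in bud, or against other tissues, or the highest means among bud-alone genes. Of the identifiers, 3347 matched the RefSeq table of Da-Ae, 2 with another name. The planned lists of floral, flowering time, anther and tissue marker genes could not be matched and are not reported. The replicate numbers were not used to pair the samples in the main fit. No sequences were used.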

Additional observations from a re-analysis of the deposited data

Results flagged for a closer look

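The cultivar difference in flower bud departed from the mean of the differences in young leaf, silique and root for 1981 genes that leaned more to 2063A in bud and 1359 that leaned more to B409 (limma, adjusted p below 0.05 and at least 2-fold). Differences of differences are given on log2(FPKM + 1) and depend on the added 1 where a group is listed at 0. Among genes with the largest changes in bud, the value was 1.44 for BnaA09g54870D and 1.12 for BnaA10g21870D towards 2063A, and -2.26 for BnaC03g23520D towards B409. BnaA09g54870D is low in root of both cultivars, and BnaC03g23520D is expressed in silique of both. Among genes expressed in bud alone it was 4.04 for BnaCnng39540D and 3.47 for BnaC04g32470D towards 2063A. Towards B409 it was -2.11 for BnaA03g12750D, -2.09 for BnaC03g15620D, -4.76 for BnaC03g36310D and -4.25 for BnaC04g33500D. For these genes it follows from expression in bud alone. Among genes also expressed elsewhere it was 4.12 for BnaC03g40460D, 4.04 for BnaA05g00480D, -3.93 for BnaC06g34730D and -3.58 for BnaC08g46530D.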

How the results depend on the processing

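An exact permutation test of 2 against 2 libraries cannot go below p = 0.33, and the depth of the B409 bud libraries limits genes near 1 FPKM. With a pseudocount of 0.1, 5567 genes were higher in 2063A, 8.65% of C genes were higher in 2063A, and runs of 3 or more towards 2063A numbered 197. Without a minimum fold, 8462 genes were higher in 2063A and 5736 in B409. Fitting only genes with a mean of at least 5 FPKM in bud, an alternative chosen after seeing the data, gave 1474 and 1378. After quantile normalization, 2875 genes were higher in 2063A and 3463 in B409, which moved the share of calls towards 2063A to 45.4%, against 55.1% as deposited, and runs higher in 2063A numbered 74. The longest run was 9 genes in each direction without a filter on low values, and 31 in each with the filter on bud libraries or with runs over genes expressed in bud.

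The bud-alone set changed with its limits. With a ceiling of 0.5 FPKM in other libraries it held 1121 genes, 114 of them higher in 2063A, with a median log2 change of -0.85. With a ceiling of 2 FPKM it held 4638 genes, 351 of them towards 2063A and 16.85% towards B409, with a median of -0.0051. With a mean of at least 5 FPKM it held 475 genes, 38 of them towards 2063A and 270 (56.8%) towards B409, with a median of -1.16.

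Leaving out each library in turn gave 3193 to 3902 genes towards 2063A and 2825 to 3019 towards B409. In the bud-alone set it gave 171 to 190 and 595 to 625, and a share of summed FPKM 1.87 to 2.01 times as large in B409. With the replicate number as a block, 3677 genes were called towards 2063A and 2998 towards B409, and no call of the 72 genes chosen by rule changed. Replicate deviations of the 2 bud groups correlated at -0.0398. Over all 28 pairs of groups the values ran from -0.175 to 0.335, and 1 pair exceeded 0.1. Such correlations cannot settle whether the replicate numbers pair the samples. None of the called genes among the 72 changed direction under these settings. With the bud libraries alone 4 of them lost their call, with a pseudocount of 0.1 it was 1, and with quantile normalization it was 1. The causes of these changes were not tested.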
